A study of Mus musculus with 1392 samples.

Results

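The SLAM gene cluster of mouse chromosome 1 was examined in single-cell ATAC-seq data, in which a transposase cuts open chromatin of each cell and adds sequencing adapters to it. Its members are all peaks of the deposited count table that overlap chr1:173480000-173900000 of the mouse build mm9, a window of 420 kb. This rule took 44 of the 115295 peaks, and it used position and no measured value. The genes considered here are Slamf1, Cd48, Cd84, Slamf6, Slamf7 and Ly9.

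The cells were haematopoietic stem cells sorted from bone marrow of C57BL/6 mice, young or old. Both ages shared 1 gate, lineage-negative, Sca-1+, Kit+, CD150+, CD48-, CD34- and Vwf+. The sources used here give no age in weeks or months, no genotype beyond the strain and no account of how Vwf was read. The table holds 332 young and 1060 old cells, each a GEO sample of its own, in 5 sets that the titles number within each age. Young 1 and 2 comprised 181 and 151 cells, and old 1 and 2 comprised 306 and 380, with the rest in old 3. Values of single sets are listed in this order throughout. Whether the cells of a set came from 1 mouse, several mice or a plate is not in the labels. With each set as 1 replicate, p-values cover no more than set-to-set variation, part or all of which may be technical. No set mixes ages, so age cannot be told apart from how a set was prepared. A change in chromatin within cells and a change in which cells passed the gate cannot be told apart in the sums over a set.

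Depth varied widely from set to set within an age. The sets held from 1159957 counts (young 1) to 4181770 counts (old 1), and the median count per cell ran from 3604.5 (old 3) to 11807 (young 2). Shallow cells (below 2000 counts) made up 27.8% of old 1 and 2.21% to 9.89% of each remaining set. Levels are therefore given as CPM values, the counts in a peak scaled to 1000000 counts of the set. Shares of cells are given with every cell thinned to 1906 counts, which left out 4, 5, 84, 13 and 34 cells too shallow for it and kept 1252.

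SLAM family receptors are surface proteins of the immunoglobulin superfamily, carried mainly by blood cells, and most of them bind the same receptor on a neighbouring cell and signal through adaptors of the SAP family. Slamf1 encodes CD150, which mouse haematopoietic stem cells carry and for which these cells were sorted. Cd48 encodes CD48, a ligand anchored to the membrane by a lipid that most other blood cells carry and that these cells were sorted to lack. The pair is the classical SLAM code for mouse stem cells, so the gate was set on the proteins of 2 genes of the cluster. Of the other members, Cd84 is carried by platelets and many leukocytes, Slamf6 (also named Ly108) and Ly9 (CD229) by lymphocytes, and Slamf7 (CRACC) by natural killer and plasma cells.

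The table names peaks by position only. In the RefSeq gene table of GRCm38.p6, a later build, the order of genes is Cd244a, Ly9, Slamf7, Cd48, a Tma7 pseudogene, Slamf1, Cd84, Slamf6 and Vangl2. In mm9 the spans used here were about chr1:173612000-173636000 for Cd48 and about chr1:173697000-173731000 for Slamf1. Peaks were therefore grouped by midpoint into 5 stretches. From low to high positions these were the Ly9 and Slamf7 side (18 peaks), the Cd48 span (5 peaks), the stretch between the spans (2 peaks), the Slamf1 span (4 peaks) and the Cd84 and Slamf6 side (15 peaks). Exons and introns were not assigned, and a peak on a side was not given to 1 gene of that side. No mm9 position was used for Cd244a, so peaks of the Ly9 and Slamf7 side may also lie at that gene.

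The promoters of Slamf1 and Cd48 are shown because the sort selected for the protein of the first and against that of the second. RefSeq promoters of GRCm38.p6 matched Slamf1, Cd48, Cd84, Slamf6 and Slamf7, and each is 300 bases long, with 250 before and 50 after the gene start. Capitals mark matches, on either strand, to letters that known blood cell factors bind. These were AGGAAG and the related form CGGAAG for ETS factors, TGTGGT for RUNX factors, AGATAA for the factors named GATA, and TGACTCA for AP-1. Other forms that these factors may bind were not searched and are not marked. The sequences of Slamf1 (chr1:171766882-171767181, plus strand) and Cd48 (chr1:171681742-171682041, plus strand) read
Slamf1: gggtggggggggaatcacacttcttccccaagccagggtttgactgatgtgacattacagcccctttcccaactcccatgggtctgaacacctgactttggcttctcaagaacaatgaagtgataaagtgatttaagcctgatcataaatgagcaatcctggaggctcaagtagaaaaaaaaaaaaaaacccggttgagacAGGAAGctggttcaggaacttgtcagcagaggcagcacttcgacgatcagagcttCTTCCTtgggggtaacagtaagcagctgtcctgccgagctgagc
Cd48: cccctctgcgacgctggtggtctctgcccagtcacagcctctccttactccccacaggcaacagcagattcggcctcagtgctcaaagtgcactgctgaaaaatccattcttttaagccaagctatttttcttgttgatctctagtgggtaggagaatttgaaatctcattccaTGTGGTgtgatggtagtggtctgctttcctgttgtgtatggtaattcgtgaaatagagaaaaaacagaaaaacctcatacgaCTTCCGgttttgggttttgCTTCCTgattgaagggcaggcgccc

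The Slamf1 promoter held AGGAAG at position 202 as printed and at position 257 on the other strand, counted from 1 at the 5′ end of the printed sequence. The Cd48 promoter held TGTGGT at position 175 as printed, CGGAAG at position 257 on the other strand and AGGAAG at position 276 on the other strand. Among 32851 mouse promoters of the same length, AGGAAG was found in 35.4%, CGGAAG in 16.9%, TGTGGT in 16.8%, AGATAA in 11.2% and TGACTCA in 5.20%. The matches are descriptions of letters, and most of them are common. GC content was 49% with 4 CG dinucleotides for Slamf1 and 47.3% with 7 for Cd48, beside medians of 52.7% and 7 over all promoters.

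The strongest peak of the cluster lay inside the Slamf1 span. It covers chr1:173702848-173703963, starts 5848 bp above the lower end of the span, and held 324 counts in 230 cells, more counts than 92.7% of all peaks. Its level was 19.0 and 24.7 CPM in young, and 30.6, 23.5 and 36.6 CPM in old sets. Old 2 lay below young 2, so the ages overlapped. The fitted log2 fold change of old over young was 0.34 (SE 0.26, edgeR adjusted p = 0.567), and it did not pass the test.

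A second peak of the Slamf1 span, named for its place and outside the rule for named peaks, starts 128 bp above the lower end of the span at chr1:173697128-173697925. It held 89 counts, with 7.76 and 5.02 CPM in young, and 8.85, 9.41 and 6.09 CPM in old sets. The sets of the ages overlapped here too (log2 fold change 0.39, SE 0.42, edgeR adjusted p = 0.718). The other 2 peaks of the span were weaker, with 24 and 46 counts.

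Summed over its 4 peaks, the Slamf1 span gave 31.9 and 37.1 CPM in young, and 45.4, 37.2 and 49.4 CPM in old sets. The mean was 34.5 ± 3.66 CPM (SD, n = 2) in young and 44.0 ± 6.23 (SD, n = 3) in old cells. All old sets lay above both young sets, old 2 by a margin far below the spread within an age. The old-to-young log2 ratio was 0.35 (exact two-sided permutation p = 0.2, adjusted p = 0.3 over 6 stretches including the whole window). With totals adjusted by the TMM factors of edgeR, old 2 no longer lay above young 2, and the ratio was 0.25 (exact two-sided permutation p = 0.3). The smallest p that this permutation allows for 2 sets against 3 is 0.1, so no comparison made by it could pass a threshold of 0.05.

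Summed over peaks, the Cd48 span was far less open than the Slamf1 span, in which 1 peak held 324 of the 483 counts. The 5 peaks of the Cd48 span held 150 counts together, over a similar length of peak (2596 bp, against 2760 bp). Its level was 6.90 and 8.88 CPM in young, and 19.1, 13.6 and 6.09 CPM in old sets. Old 1 and old 2 were highest and old 3 lowest of all 5, so the old sets lay on both sides of the young ones. The old-to-young log2 ratio was 0.58 (exact two-sided permutation p = 0.5, adjusted p = 0.6). It was 0.22 without old 1, 1.05 without old 3 and -0.00011 in thinned cells.

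The peak that holds the lower end of the Cd48 span, chr1:173611797-173612525, was also taken for its place. It had 32 counts, with 1 and 8 in young and 14, 8 and 1 in old sets, too few for the count filter. The highest peak of the span, chr1:173619232-173619889, had 1.72 and 3.09 CPM in young, and 5.74, 4.70 and 1.83 CPM in old sets. It was the only tested peak of the span, and its interval was wide (log2 fold change 0.67, 95% interval -0.59 to 1.94, edgeR adjusted p = 0.677). Another peak of the span, chr1:173628996-173629524, drew 30 of its 48 counts from old 1 and was not tested.

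Per kb of span, Slamf1 stood above Cd48 in 5 of 5 sets. This rests on 1 peak, chr1:173702848-173703963, which held 324 of the 483 counts of the Slamf1 span. Without that peak the order would not hold in every set. With all peaks, the level per kb of Slamf1 over that of Cd48 was 3.26-fold and 2.95-fold in young, and 1.68-fold, 1.92-fold and 5.72-fold in old sets. The order of the genes is that of the gate, positive for CD150 and negative for CD48, although for these 2 genes the gate read surface proteins and not chromatin. The log2 of this ratio averaged 1.63 ± 0.10 (SD, n = 2) in young and 1.40 ± 0.97 (SD, n = 3) in old cells. The difference of -0.23 was within the spread among the old sets (exact two-sided permutation p = 0.9).

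**Figure D1:**
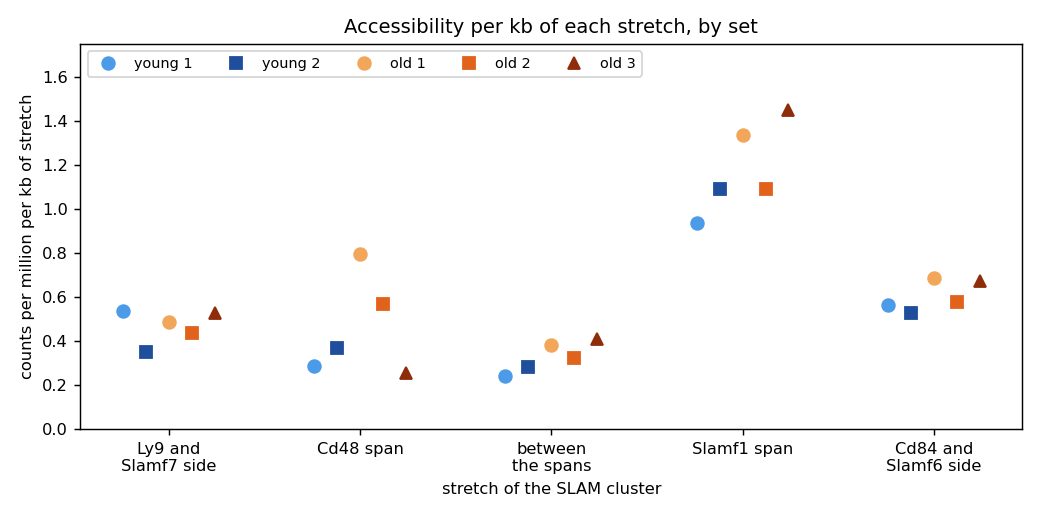
CPM per kb of stretch (y axis) for the 5 stretches of the SLAM cluster (x axis), with 1 point for each of the 2 young and 3 old sets. The Slamf1 span lies above every other stretch in each set, with a mean of 1.18 CPM per kb, and the old sets lie on both sides of the young sets in the Cd48 span.

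Levels per kb put the stretches in the order Slamf1 span (mean over sets 1.18 CPM per kb), Cd84 and Slamf6 side (0.607), Ly9 and Slamf7 side (0.468), Cd48 span (0.455) and the stretch between the spans (0.329). In the plot of levels per kb, the Slamf1 span runs from 0.938 to 1.45 CPM per kb and the Cd84 and Slamf6 side from 0.530 to 0.688, so they do not overlap. Each lower pair of neighbours in this order overlaps over the sets. The order depends on the length used. Per kb of peak, the stretch between the spans was highest (mean over sets 15.3 CPM per kb of peak), followed by the Slamf1 span (14.6), the Cd84 and Slamf6 side (12.7), the Ly9 and Slamf7 side (7.21) and the Cd48 span (4.21).

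Between the spans, 1 peak carried nearly all counts. It covers chr1:173691783-173692742, starts at -5217 bp relative to the lower end of the Slamf1 span, and held 229 of the 243 counts of the stretch. The level was 14.7 and 16.6 CPM in young, and 21.8, 18.3 and 23.8 CPM in old sets. All old sets lay above both young sets, while the fit gave a log2 fold change of 0.34 (SE 0.28, edgeR adjusted p = 0.612). The summed stretch had a log2 ratio of 0.50 with the smallest p the design allows (exact two-sided permutation p = 0.1, adjusted p = 0.3). With TMM-adjusted totals the ratio was 0.41 (exact two-sided permutation p = 0.2).

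The clearest difference with age lay on the Cd84 and Slamf6 side, 48773 bp above the lower end of the Slamf1 span. That side begins at the upper end of the Slamf1 span, about chr1:173731000, and its peaks were not assigned to single genes. The peak chr1:173745773-173746463 was more accessible in old cells and was the only member called by edgeR's quasi-likelihood test. Young sets had 10 and 18 counts there, and old sets 76, 37 and 28. As levels these were 8.62 and 6.95 CPM in young, and 18.2, 17.4 and 17.1 CPM in old sets. The old sets lay close together, at 17.5 ± 0.569 CPM (SD, n = 3), above 7.79 ± 1.18 CPM (SD, n = 2) in young. The log2 fold change was 1.14 (SE 0.34, 95% interval 0.47 to 1.81), with an edgeR adjusted p of 0.0482, just under the threshold of 0.05. Leaving out any 1 of the 5 sets kept the fold change between 0.98 and 1.26 and ended the call, with adjusted p from 0.0881 (without young 1) to 0.443 (without young 2). With DESeq2 the fold change was 1.12 and the adjusted p 0.445.

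The next peak, chr1:173746586-173747599, begins 123 bp further on. It had 6.03 and 7.34 CPM in young, and 13.6, 12.2 and 15.2 CPM in old sets, again with every old set above both young sets. Its log2 fold change of 0.90 (SE 0.36) did not pass the test (edgeR adjusted p = 0.183). Summed, the 2 peaks gave 14.7 and 14.3 CPM in young, and 31.8, 29.6 and 32.3 CPM in old sets. Of 234 cells with a count in either peak, 18 had a count in both, 13 of them in old 1. The gap is short enough for 1 fragment to touch both peaks, so they are not taken as 2 independent measurements.

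Other peaks on this side differed less or in the opposite direction. The strongest, chr1:173770442-173771170, had 19.0 and 15.1 CPM in young, and 15.8, 16.9 and 15.8 CPM in old sets, with a log2 fold change of -0.11 (SE 0.29, edgeR adjusted p = 0.904). The peak chr1:173787382-173787666 had 5.17 and 11.2 CPM in young, and 4.07, 4.23 and 4.88 CPM in old sets. Both young sets lay above all old sets there, but young 1 by little, and young 2 held 29 of the 69 counts (log2 fold change -1.12, SE 0.43, edgeR adjusted p = 0.155). The peak chr1:173833036-173833632, the third of the lowest p-values towards young, had a log2 fold change of -0.37 (edgeR adjusted p = 0.763). Over all 15 peaks the side gave 95.7 and 89.6 CPM in young, and 116.2, 97.4 and 114.0 CPM in old sets (log2 ratio 0.23, exact two-sided permutation p = 0.2, adjusted p = 0.3). With TMM-adjusted totals the log2 ratio was 0.14 (exact two-sided permutation p = 0.3).

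The Ly9 and Slamf7 side held peaks that pointed both ways. None of its 7 tested peaks was called by edgeR. An unadjusted p under 0.05 was found for 3 of the 7, and for 15.4% of all tested peaks of the table. The strongest, chr1:173494303-173494769, had 8.62 and 5.41 CPM in young, and 5.98, 7.53 and 14.0 CPM in old sets. Old 3 stood above the other sets, which overlapped (log2 fold change 0.30, SE 0.43, edgeR adjusted p = 0.804). The peak chr1:173561118-173561993 had 5.17 and 4.25 CPM in young, and 9.80, 9.41 and 7.92 CPM in old sets, with no overlap, and a log2 fold change of 0.92 (SE 0.43) that did not pass (edgeR adjusted p = 0.282).

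The largest fitted difference towards young on this side rested on few cells. The peak chr1:173590494-173590965 had 12.9 and 5.02 CPM in young, and 3.59, 2.82 and 3.05 CPM in old sets. Of its 15 counts in young 1, 12 came from 1 cell, and 39 cells in all had a count. The log2 fold change was -1.36 (SE 0.49, edgeR adjusted p = 0.127), and -0.70 without young 1. Over its 18 peaks the side gave 70.7 and 46.3 CPM in young, and 64.6, 57.9 and 69.5 CPM in old sets, and the old-to-young log2 ratio was 0.16 (exact two-sided permutation p = 0.7).

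**Figure D2:**
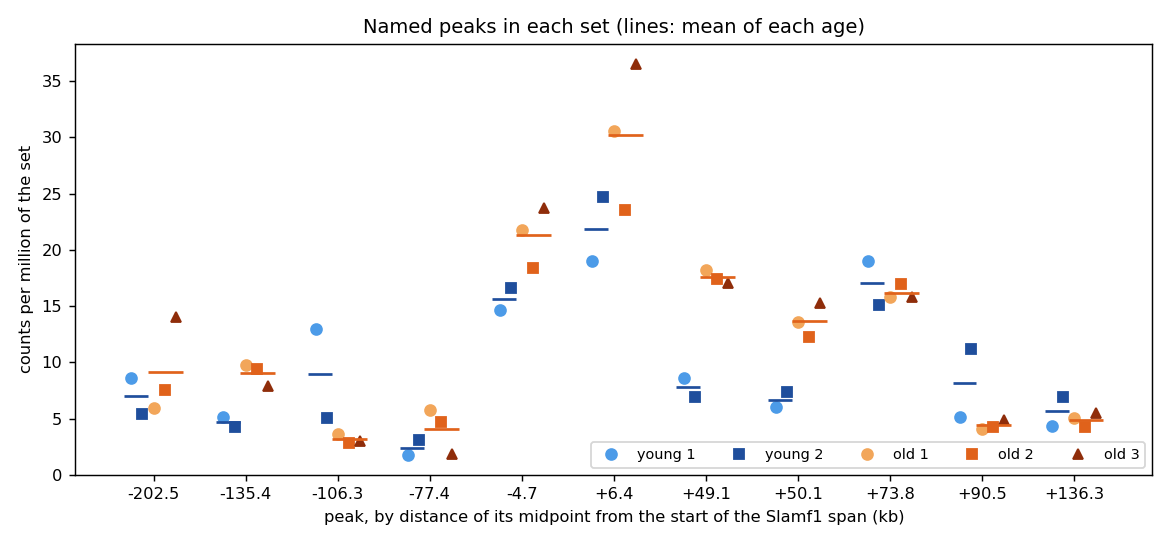
CPM (y axis) of the 11 peaks named by rule, placed by the distance of their midpoint from the lower end of the Slamf1 span in kb (x axis), with 1 point per set and a line at the mean of each age. The adjoining pair on the Cd84 and Slamf6 side has all old sets at 12.2 CPM or more and both young sets at 8.62 or less.

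Read over the whole cluster, the number of called peaks was close to the background of the table. Of the 44 members, 22 passed the count filter, against 50.5% of all peaks, and the test covered only these. The test called 1 of 22 higher in old, where 1.39% of all 58167 tested peaks were called higher in old, and 0 of 22 higher in young, where 1.78% were. DESeq2, which fitted all 44 members, called 0 of them and gave 2 an unadjusted p under 0.05, against 4.49% of all peaks. It gave no adjusted p to at least 1 member, chr1:173619232-173619889, so not all 44 could be called by it. By edgeR, 6 of 22 members had an unadjusted p under 0.05 (15.4% of all tested peaks), 4 towards old and 2 towards young. With library totals in place of TMM factors, the table's 808 calls higher in old and 1036 higher in young became 1051 and 770, and the same number of members, 1, was called. Every old set lay above both young sets in 6 of 22 members, against 20.1% of all tested peaks. The reverse held in 2 of 22, against 12.9%.

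The fitted changes of the members were small next to their errors. Of the 22 tested members, 13 were fitted higher in old (59.1%, against 49.2% of all tested peaks) and 9 lower. Their log2 fold changes had a median of 0.15, beside -0.01 over all tested peaks, and the median standard error was 0.43. By stretch, 3 of 7 tested peaks were fitted higher in old on the Ly9 and Slamf7 side, 1 of 1 in the Cd48 span, 1 of 1 between the spans, 2 of 3 in the Slamf1 span and 6 of 10 on the Cd84 and Slamf6 side.

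**Figure D3:**
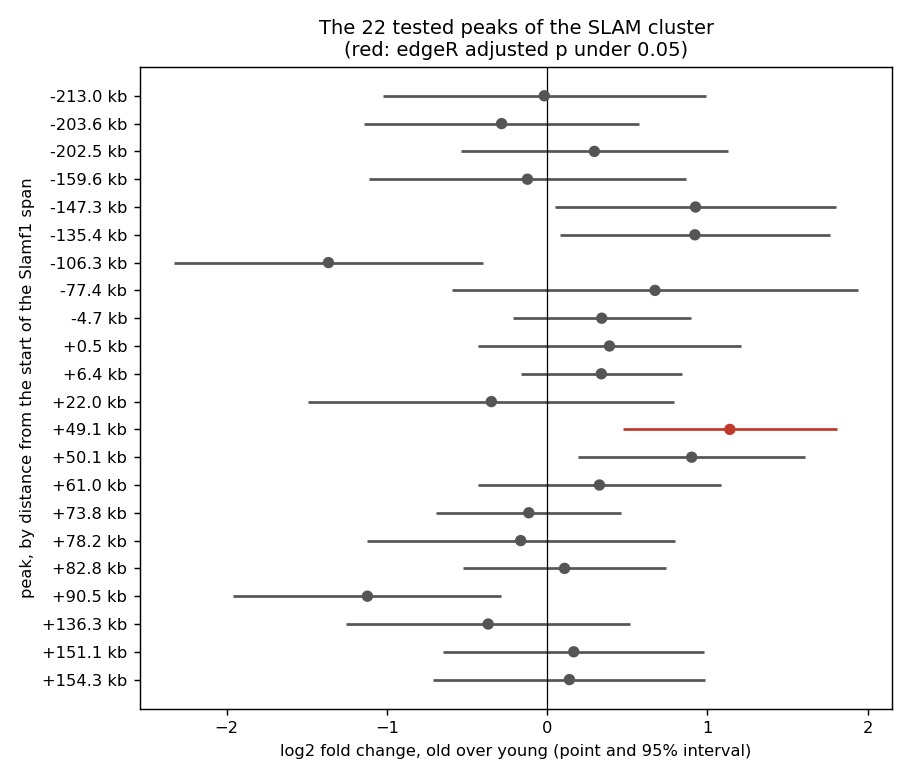
Log2 fold change of old over young with its 95% interval (x axis) for the 22 tested peaks, in order of position, each given by its distance in kb from the lower end of the Slamf1 span (y axis). The intervals of 16 peaks span 0, and the red point, at 1.14, is the only one with an adjusted p under 0.05.

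As a whole, the window held 2808 counts. Its level was 219.8 and 199.2 CPM in young, and 268.8, 225.8 and 263.9 CPM in old sets. All old sets lay above both young sets, with old 2 close to young 1. The old-to-young log2 ratio was 0.27 (exact two-sided permutation p = 0.2, adjusted p = 0.3). With TMM-adjusted totals old 2 no longer lay above young 1, and the ratio was 0.17 (exact two-sided permutation p = 0.3). The Cd84 and Slamf6 side contributed 43.1% to 45.0% of the counts of the window in every set, and the Slamf1 span 14.5% to 18.7%. The share of the Cd48 span varied most in proportion, from 2.31% in old 3 to 7.12% in old 1.

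**Figure D4:**
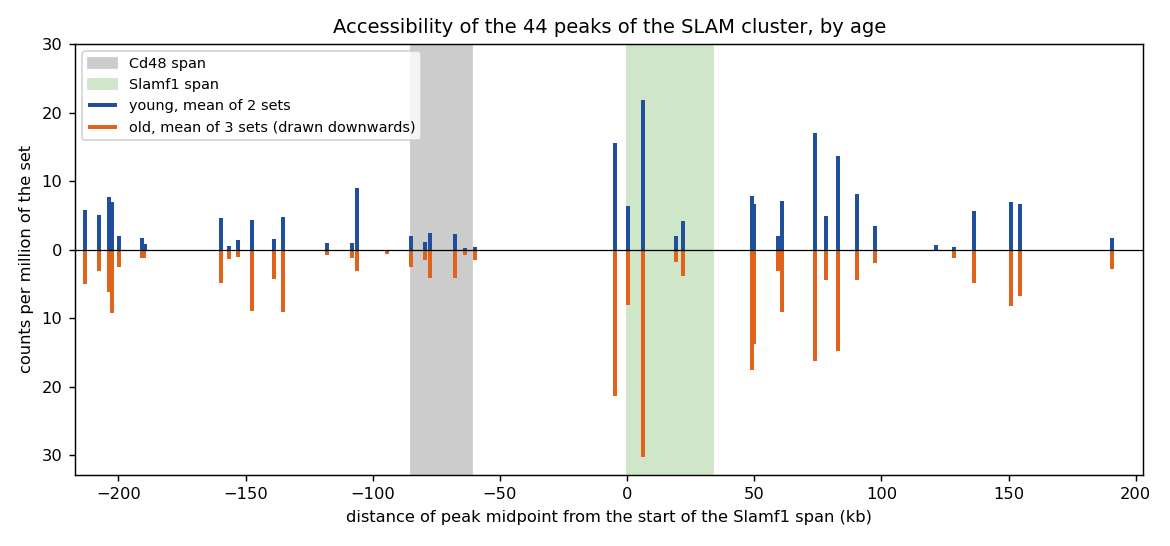
Mean CPM of each of the 44 peaks (y axis, 2 young sets drawn upwards and 3 old sets downwards) against the distance of its midpoint from the lower end of the Slamf1 span in kb (x axis), with the Cd48 and Slamf1 spans shaded. The highest peak lies in the Slamf1 span, at 21.8 CPM in young and 30.2 CPM in old, and the peaks in the Cd48 span are low at both ages.

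The share of cells with a count anywhere in the window depended on the depth at which the cells were compared. At 1906 counts per cell, the share, with its exact 95% binomial interval, was 32.8% (25.9 to 40.2%) in young 1 and 33.6% (26.0 to 41.8%) in young 2. It was 40.5% (34.0 to 47.3%) in old 1, 33.2% (28.4 to 38.3%) in old 2 and 41.2% (35.9 to 46.6%) in old 3. Old 2 lay between the young sets, and old exceeded young by 5.15 percentage points on average (exact two-sided permutation p = 0.3, adjusted p = 0.9 over the 6 stretches). In the cells that could be thinned to 3812 counts, the shares were 53.3% (44.6 to 61.9%) and 48.9% (40.0 to 57.7%) in young, and 64.6% (57.3 to 71.4%), 58.1% (51.5 to 64.5%) and 59.5% (51.8 to 66.9%) in old sets. There every old set lay above both young sets, by 9.67 points on average, with the smallest p the design allows (exact two-sided permutation p = 0.1, adjusted p = 0.3). Without thinning the shares were 63.5% and 79.5% in young, and 71.2%, 62.4% and 62.3% in old sets, and young 2, the set with the deepest cells, was highest. Intervals cover counting error over the cells of a set only and leave out variation between sets.

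A count in the Slamf1 span was found in 7.34% (3.97 to 12.2%) and 6.85% (3.33 to 12.2%) of thinned cells of the young sets, and in 10.8% (7.05 to 15.7%), 6.27% (4.01 to 9.26%) and 8.53% (5.79 to 12.0%) of those of the old sets. For the Cd48 span the shares were 1.69% (0.351 to 4.87%), 2.05% (0.426 to 5.89%), 2.70% (0.998 to 5.79%), 1.36% (0.444 to 3.15%) and 1.47% (0.479 to 3.40%) in the same order. The share for Slamf1 was above that for Cd48 in each set, and for both the ages overlapped (exact two-sided permutation p = 0.6 for Slamf1 and 1 for Cd48). Between the spans the ages did not overlap, at 0.565% (0.0143 to 3.11%) and 2.74% (0.751 to 6.87%) in young, and 4.05% (1.87 to 7.56%), 5.72% (3.58 to 8.61%) and 5.00% (2.94 to 7.88%) in old sets. This difference of 3.27 points rested on 1 and 4 young cells (exact two-sided permutation p = 0.1, adjusted p = 0.6), and without thinning it was -2.19 points. In a single thinned cell the cluster gave a count in 0.387 to 0.554 members on average, so the state of 1 gene in 1 cell cannot be read from these counts.

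Joint detection was correspondingly rare. Of 1252 thinned cells, 99 had a count in the Slamf1 span, 22 in the Cd48 span and 2 in both, where 1.74 would follow from the shares alone. Among the 8 members detected in most cells, the correlation of detection over thinned cells ran from -0.037 to 0.068 over 28 pairs, with a median of -0.00038. Cells are not replicates here and the values are mostly 0, so correlations of this size are no finding. The same holds for the peaks outside the window whose detection was most like that of the Slamf1 span. Among 58145 tested peaks these were chr8:26148162-26149482 (r = 0.148), chr6:38302450-38302794 (r = 0.145) and chr15:75428628-75429160 (r = 0.139), the first with 11 and the others with 7 cells in common.

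The cluster's peaks were ordinary in size and depth. Their median width was 468.5 bp, against 417 bp over all peaks, and their median total was 46.5 counts, against 46. A count was found in a median of 39.5 cells, against 41. The range among members was wide, from 3 to 324 counts, and 13 of 44 had under 20 counts, against 22.4% of all peaks. Gaps between neighbouring members had a median of 4923 bp, against 7164 bp over the table. Among 5631 tiles of the same width across the genome, 89.0% held fewer peaks than the 44 of this window and 70.1% had a lower summed level.

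The neighbouring windows of the same width held 58 peaks below and 40 peaks above the cluster. Their summed levels were 632.7 and 375.1 CPM, averaged over the sets, against 235.5 CPM in the cluster. The old-to-young log2 ratio was 0.03 below and -0.07 above, beside 0.27 in the cluster. These differences between windows were not tested.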

How the data were processed

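The deposited table gives a whole-number count for each peak in each cell, and the values show no normalization by the authors. Build mm9 and the tools Trim Galore, FastQC, SAMtools, Picard and Bowtie2 are listed by the submitters' processing notes. Not given in the sources used here are the peak caller, the handling of cut sites and the unit counted (reads or fragments). If duplicates were kept, single cells could weigh heavily in a peak. Peak positions follow the table's row names, which do not state whether starts count from 0 or 1.

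The 1392 columns matched 1 sample title each and were all distinct. Counts were summed per set and tested over all peaks with edgeR 4.0.16 in R 4.3.3 (quasi-likelihood test with robust dispersion, TMM factors, filterByExpr at a minimum count of 10, Benjamini-Hochberg adjustment, threshold 0.05). The standard error is the log2 fold change over the square root of F, and intervals are 1.96 standard errors on either side. The script was tested on simulated data with 1 dispersion for all peaks. There the edgeR test recovered 16% of peaks with a log2 change of 1 and 70% of those with a change of 2. CPM values of sets were compared by exact permutation of set labels (scipy 1.17.1). Peaks named are every called member, the highest mean CPM of each stretch and the 3 smallest p-values in each direction. The peak at each span's lower end and the Cd48 span peak with most of its counts in old 1 were named after values were seen. Members, spans and lists were chosen with earlier results of these data known. Alternatives covered the test (DESeq2 1.42.0), scaling, filter, binarized counts, cell filter, thinning, threshold, a set-number block and each set left out in turn. No genome of mm9 was used, so sequences of peaks are not shown.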

Additional observations from a re-analysis of the deposited data

How the results depend on the processing

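Of the results above, the fold change of the called peak chr1:173745773-173746463 kept its direction in 12 of 12 alternatives (0.98 to 1.26) and its call in 4 of 12, with edgeR or DESeq2 adjusted p from 0.0271 to 0.445. The number of members called was 1 with library totals, a minimum count of 30, binarized counts and cells of at least 2000 counts. It was 0 at a threshold of 0.01, with DESeq2, without the count filter (edgeR adjusted p = 0.0507) and on leaving out any 1 of the old sets. It was also 0 in thinned cells, where the called peak was not among the 2 members tested and so could not be called. Over the table, the 1844 calls became 426 with DESeq2, 840 at the threshold of 0.01, 769 at a minimum count of 30, 222 in thinned cells and 776 to 1641 on leaving out a set.

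The labels do not say whether equal set numbers pair the ages. Deviations of equal numbers correlated at -0.0758 and -0.000706. The deviations of the young sets mirror each other, so these correlations cannot decide whether sets of equal number were prepared together. With the replicate block, 0 members and 1102 peaks were called, and the called peak had a log2 fold change of 1.14 (edgeR adjusted p = 0.128).

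These values reversed sign, none of them past a threshold. The strongest peak of the Ly9 and Slamf7 side went to -0.0804 with the block and -0.0689 to 0.633 on leaving out a set (-0.0359 without old 3). That of the Cd84 and Slamf6 side went to 0.0812 with binarized counts and -0.275 to 0.0268 on leaving out a set, and chr1:173833036-173833632 to -0.575 to 0.139. The log2 ratio of the Ly9 and Slamf7 side was -0.0688 in thinned cells and -0.15 to 0.46 on leaving out a set, and that of the Cd48 span was -0.00011 in thinned cells and 0.22 to 1.05 on leaving out a set. The old minus young difference in the Slamf1 to Cd48 log2 ratio was 0.30 in thinned cells and -0.79 to 0.10 on leaving out a set. Without thinning, the differences in shares of cells were -6.20 points for the window, 2.04 for the Cd48 span and -5.54 for the Slamf1 span. At the thinning depth of 3812 counts, which left out a larger part of each old set than of either young set, the window's difference was 9.67 points. The ages no longer overlapped there. For the Cd48 span the difference was 2.85 points at that depth and -0.46 to 0.21 on leaving out a set. The cause of these changes was not tested. In thinned cells the peak between the spans went from 0.34 to 2.01, without passing the test.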
